A study of Mus musculus with 8 samples.

Results

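The genes described here are the mitochondrial carriers of the Slc25 family in mouse brown adipose tissue, taken as every gene symbol made of Slc25a and a number. The uncoupling protein genes, which belong to the same protein family but carry Ucp symbols, were not counted as members. The rule found 44 of the 22552 genes in the mRNA table. Brown adipose tissue of mice aged 2 months, on a background that mixes 129SV, FVB/N and C57BL/6, was compared between wild-type mice (mmu-mir-193b +/+, WT) and mice from which the mir-193b and mir-365-1 microRNA genes were deleted (mmu-mir-193b -/-, Null). The cluster was deleted from a floxed allele with MMTV-Cre, a recombinase under a mammary tumour virus promoter, and the transgene was then bred away per the labels. The labels give 3 WT and 3 Null mRNA-seq samples, which the authors combined into 1 value per genotype, named the WT pool and the Null pool in what follows. Values are in FPKM, fragments scaled by transcript length and by the number of mapped fragments, so levels can be compared between genes. With 1 value per genotype there is no spread between mice and no test, and every difference below is a difference between these pools.

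Carriers of this family sit mostly in the inner mitochondrial membrane and move nucleotides, phosphate, carboxylates, amino acids, cofactors and metal ions between cytosol and matrix. Most work as exchangers: the ADP/ATP carriers bring ADP in and send ATP out, the citrate carrier sends citrate to the cytosol for fatty acid synthesis, and the carnitine carrier brings acylcarnitines in for oxidation. Brown fat both burns and makes fatty acids in cells packed with mitochondria, and Ucp1, a relative of these carriers, lets protons back into the matrix so that respiration gives heat.

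The deleted microRNAs were checked first, in 1 WT and 1 Null microRNA library. miR-193b-3p was at 3705 RPM in the WT library and 11.5 RPM in the other, which is 0.311% of WT. miR-365-3p, which the intact mir-365-2 gene also encodes, was at 1442 and 798 RPM. The mature sequences, from RefSeq on build GRCm38.p6, are shown because the deleted genes encode them, with the seed (bases 2 to 8) in capitals.
mmu-miR-193b-3p, chr16:13449570-13449591, plus strand: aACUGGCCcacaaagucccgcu
mmu-miR-365-3p, chr16:13453895-13453916, plus strand: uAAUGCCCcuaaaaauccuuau

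The levels of the 44 carriers ranged from 0 to 1068 FPKM. In both pools 9 members were above 100 FPKM, among them Slc25a1, Slc25a4, Slc25a20, Slc25a3, Slc25a39, Slc25a5, Slc25a11 and Slc25a35. A further 14 had a mean of 10 to 100 FPKM and 14 a mean of 1 to 10 FPKM. The other 7 were under 1 FPKM in both pools. The 9 most abundant members made up 84.9% of the family's summed FPKM in WT and 85.2% in Null. Of the 10 most abundant members in WT, 9 were also among the 10 most abundant in Null, and no member whose mean reached 1 FPKM moved by more than 5 places within the family.

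**Figure D1:**
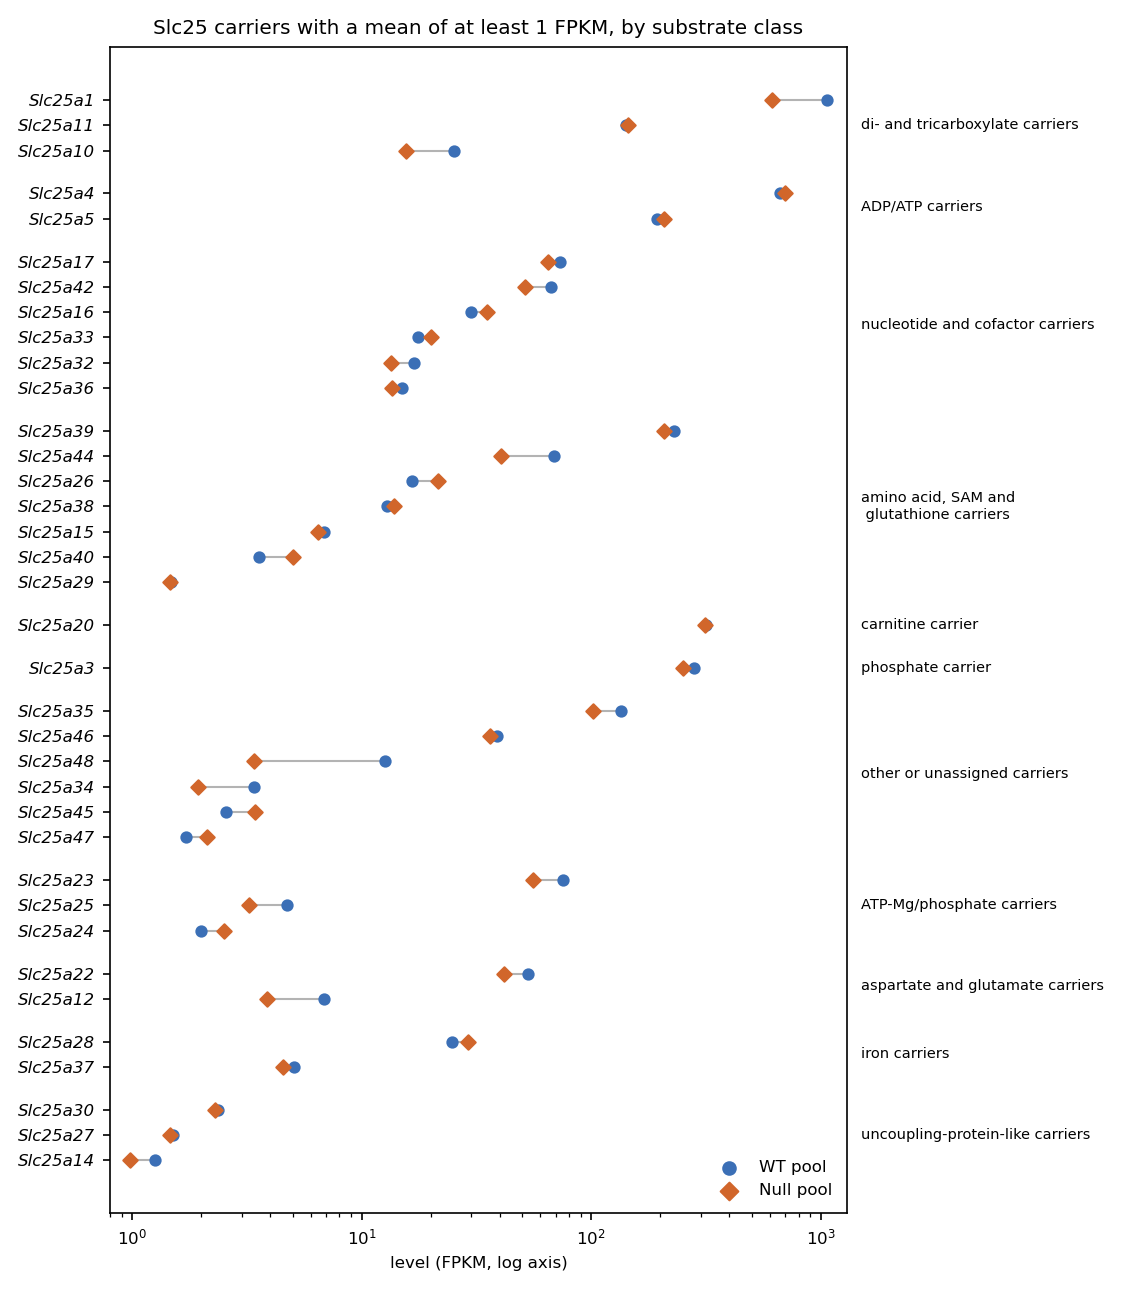
Level in FPKM (log axis) of carriers whose mean reached 1 FPKM, grouped by substrate class; circles are the WT pool and diamonds the Null pool, each 1 value without error, and SAM stands for S-adenosylmethionine. The marks lie close together for most members, with the widest gap at Slc25a48 (12.6 and 3.39 FPKM) and Slc25a1 at the top of WT (1068 FPKM).

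The family sum was 3931 FPKM in WT against 3352 in Null, or 0.773% and 0.568% of all FPKM in the table. Most of that difference came from the citrate carrier Slc25a1. Without it the sums were 2864 and 2736 FPKM, a ratio of 0.955. The sum of all genes differed in the opposite direction, at 508701 FPKM in WT against 590327 in Null.

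Members were compared between pools as log2((Null + 1)/(WT + 1)), which understates the difference of low genes. The 37 members whose mean reached 1 FPKM entered, as did 11597 genes in all, and a gene counted as higher or lower from 1.5-fold on this scale. Of the 37 members, 5 were lower in Null, where 6.75% of all genes were, and 0 were higher, where 7.87% of all genes were. By 2-fold or more 1 member was lower, against 1.65% of all genes, and 0 were higher, against 2.17%. Of the 37 log2 ratios 24 were below 0 (49.4% of all genes) and 13 above 0 (50.6%). The median log2 ratio of the members was -0.09, against 0.01 for all genes. The share within 1.5-fold was 86.5% for the members and 85.4% for all genes, so the share of the family past 1.5-fold in either direction was close to the 14.6% of all genes. In bulk tissue, fewer cells of a type and less RNA per cell cannot be told apart.

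The count of lower members depended on the scale. It was 3 with a pseudocount of 5 FPKM, without Slc25a10 and Slc25a12, where 3.04% of all genes were lower. It was 9 when both pools were scaled to the same sum, with Slc25a23, Slc25a25, Slc25a34 and Slc25a35 added. At the same sum 13.97% of all genes were lower. That scaling lowered the median of all genes by 0.19 and raised the share of calls that were lower in Null from 46.2% to 77.6% over all genes. The signs of 6 members with log2 ratios near 0 turned under at least 1 scaling, among them Slc25a4, Slc25a5, Slc25a11, Slc25a33 and Slc25a38.

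**Figure D2:**
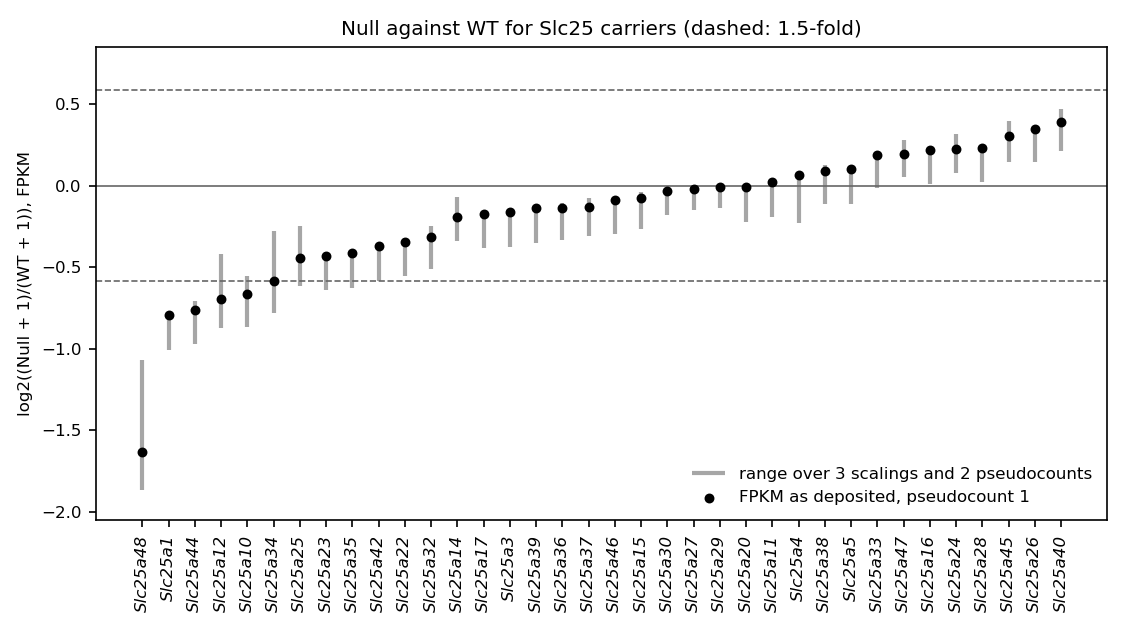
Log2 ratio of Null to WT for carriers whose mean reached 1 FPKM, in order; points are FPKM as deposited with a pseudocount of 1 FPKM, grey bars span 3 scalings and 2 other pseudocounts, and dashed lines mark 1.5-fold. Slc25a48, Slc25a1 and Slc25a44 stay below the lower line over the whole of their bars, and no bar drawn reaches the upper line.

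The ADP/ATP carriers, which exchange matrix ATP for cytosolic ADP, were the second most abundant class in WT and the most abundant in Null. Slc25a4, the form typical of heart and skeletal muscle, was at 665 FPKM in WT against 696 in Null. Slc25a5, the form typical of growing cells, was at 193 and 207 FPKM. Both pools therefore held more Slc25a4 than Slc25a5, with a ratio of 3.45 in WT and 3.36 in Null, and Slc25a4 made up 77.5% and 77.1% of the class. Slc25a31, the form of the testis, was at 0.121 and 0.190 FPKM. The class summed to 859 and 903 FPKM, a ratio of 1.05 (log2 0.07, -0.14 with both pools at the same sum and -0.19 with quantile normalization). Slc25a5 has near-identical processed copies in the genome, and how fragments that map to several places were counted is not given in the sources used here, so its level is uncertain.

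Skeletal muscle fibres also express Slc25a4, and their markers differed between the pools: 9 of 12 were past 1.5-fold and lower in Null (6.75% of all genes). The median of their log2 ratios was -1.11, and they summed to 2890 and 1941 FPKM. Myh4, a fast myosin heavy chain, was at 106 and 40.2 FPKM. The markers within 1.5-fold were Tnnt3 (596 and 418 FPKM), Ckm (491 and 354 FPKM) and Mylpf (481 and 513 FPKM). Slc25a4 was at 665 and 696 FPKM. Ckmt2, the mitochondrial creatine kinase of striated muscle that takes up exported ATP, was at 47.2 and 22.1 FPKM. The part of muscle fibres in the level of Slc25a4 was not tested.

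Slc25a3, which brings in the phosphate that ATP synthase needs, was at 281 FPKM in WT against 251 in Null. It was 1.45 times Slc25a5 in WT and 1.21 times in Null. In the list of 15 genes that handle adenylates and phosphate beside these carriers, 13 passed the filter, with a median of -0.04. Among them 2 were higher (7.87% of all genes) and 2 were lower (6.75%). The lower ones were Ckmt2 and the hexokinase Hk2 (129 and 74.2 FPKM). The higher ones were the creatine kinase Ckb (6.74 and 13.9 FPKM) and the ATP synthase inhibitor Atpif1 (34.8 and 56.5 FPKM). The catalytic ATP synthase subunit Atp5b was 4.51 times the sum of Slc25a4 and Slc25a5 in WT and 3.09 times in Null. The other listed subunits went both ways, Atp5a1 at 1807 and 1467 FPKM and Atp5o at 679 and 958 FPKM. The outer membrane channel Vdac1 was at 276 and 255 FPKM.

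The di- and tricarboxylate carriers were the most abundant class in WT, at 1235 FPKM, and stood at 776 FPKM in Null, a ratio of 0.628. Slc25a1, the citrate carrier, was the most abundant member in WT, at 1068 FPKM, and the second in Null, at 616 FPKM. Its log2 ratio was -0.79, from -1.01 to -0.79 over the alternatives, and 3.02% of all genes had a lower ratio. Slc25a10, which exchanges malate or succinate for phosphate, was at 25.2 and 15.6 FPKM, a log2 ratio of -0.66 (-0.56 with a pseudocount of 5 FPKM). Slc25a11, which exchanges oxoglutarate for malate, was at 142 and 144 FPKM. The ratio of Slc25a1 to Slc25a11 was 7.53 in WT and 4.27 in Null, so the members of this class did not differ alike. Slc25a21, a carrier of oxodicarboxylates, was at 0.0267 FPKM in WT, with a listed value of 0 in Null.

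Enzymes that make or use these carboxylates were measured beside the carriers. Of 9 genes of citrate and carboxylate metabolism, 5 were lower by 1.5-fold or more (6.75% of all genes) and 0 were higher (7.87%). All 9 had a log2 ratio below 0 (49.4% of all genes), with a median of -0.61. Acly, which splits exported citrate into acetyl-CoA, was at 1969 FPKM in WT against 1139 in Null, and its ratio to Slc25a1 was 1.84 in WT and 1.85 in Null. The acetyl-CoA carboxylases Acaca (197 and 128 FPKM) and Acacb (230.1 and 118 FPKM) and the malic enzyme Me1 (419 and 230 FPKM) were also among the 5. The fifth was Sdha, a subunit of succinate dehydrogenase, at 1189 and 756 FPKM. Citrate synthase, Cs, was at 1033 and 814 FPKM, within 1.5-fold.

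**Figure D3:**
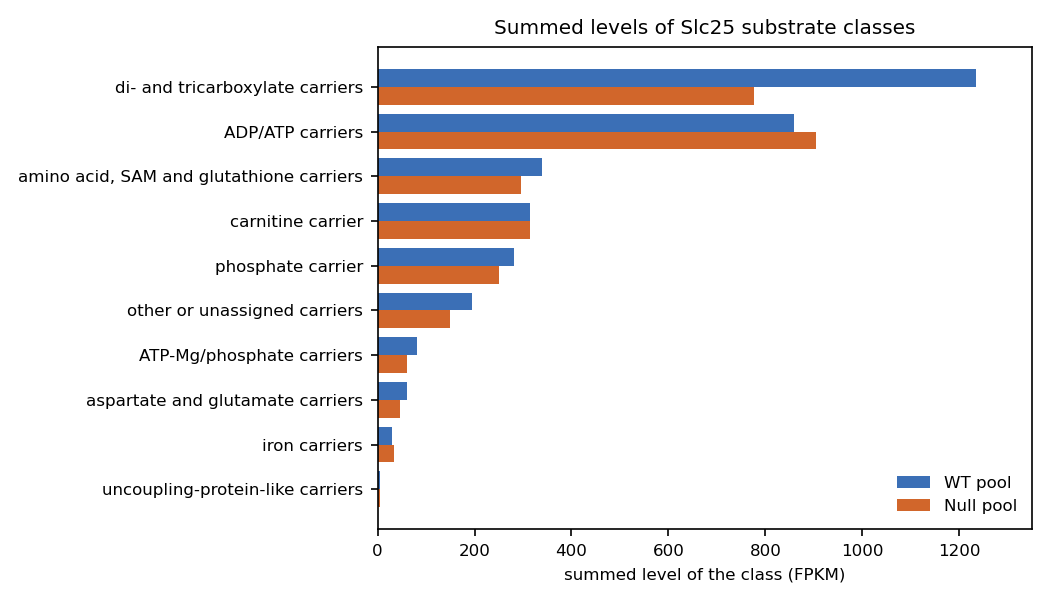
Summed FPKM of substrate classes in WT (blue) and Null (orange) pools, without the nucleotide and cofactor carriers; bars start at 0 and carry no error, since each genotype has 1 value. The di- and tricarboxylate carriers have the widest gap, 1235 against 776 FPKM, and the ADP/ATP carriers, 859 against 903 FPKM, take the first place in Null.

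The carnitine carrier Slc25a20, which exchanges acylcarnitine for carnitine, was the third most abundant member in WT at 315 FPKM and the fourth in Null at 314 FPKM. Its ratio of 0.996 was the nearest to 1 among the 12 most abundant members, and 48.7% of all genes had a lower log2 ratio. With both pools at the same sum its log2 ratio was -0.22, and with quantile normalization -0.20. The enzymes before and after it were of like abundance: Cpt1b, which makes acylcarnitine at the outer membrane, was at 397 and 370.3 FPKM, and Cpt2, which remakes acyl-CoA in the matrix, at 303 and 245 FPKM. Of 8 genes of the carnitine shuttle 7 passed the filter, with a median of -0.27. Among them 1 was lower (6.75% of all genes) and 0 were higher (7.87%). The lower one was Acsl1, which activates long-chain fatty acids, at 630.4 and 369 FPKM.

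Carriers of nucleotides and cofactors included no member past 1.5-fold. Slc25a17, a carrier of CoA, FAD and NAD in peroxisomes, was at 72.8 and 64.5 FPKM. Slc25a42, which brings CoA into mitochondria, was at 67.0 and 51.6 FPKM, a log2 ratio of -0.37. Slc25a16 was at 30.0 and 35.1 FPKM, and the pyrimidine nucleotide carriers Slc25a33 and Slc25a36 were at 17.5 and 20.1 FPKM and at 14.95 and 13.5 FPKM. The folate and FAD carrier Slc25a32 was at 16.9 and 13.4 FPKM.

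Carriers of amino acids, S-adenosylmethionine and glutathione summed to 339.8 FPKM in WT against 297 in Null. Slc25a39, needed for mitochondrial glutathione, held most of it at 229 and 208 FPKM, while its close relative Slc25a40 was at 3.58 and 4.9996 FPKM. The ratio of Slc25a39 to Slc25a40 was 64.0 in WT and 41.6 in Null. Slc25a44, the carrier of branched-chain amino acids known from brown fat, was the only member of this class past 1.5-fold, at 69.0 and 40.3 FPKM, a log2 ratio of -0.76 (-0.97 to -0.71 over the alternatives). In the branched-chain amino acid list 0 of 11 genes were lower by 1.5-fold (6.75% of all genes). In it 0 were higher (7.87% of all genes), with a median of -0.24. In that list Bckdha, a subunit of the rate-limiting dehydrogenase, was at 458 and 377 FPKM. The S-adenosylmethionine carrier Slc25a26 was at 16.6 and 21.4 FPKM, the glycine carrier Slc25a38 at 12.9 and 13.8 FPKM and the ornithine carrier Slc25a15 at 6.84 and 6.43 FPKM. Among 10 glutathione and one-carbon genes 9 passed the filter, with a median of -0.15. In this list 1 was higher (7.87% of all genes), the peroxidase Gpx4 at 203 and 308 FPKM, and 0 were lower (6.75%).

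Carriers of aspartate and glutamate were a minor class, at 60.6 FPKM in WT against 45.8 in Null. Slc25a22, which carries glutamate with a proton, made up most of it at 53.2 and 41.7 FPKM. Of the aspartate-glutamate carriers, Slc25a12 was at 6.86 and 3.86 FPKM, a log2 ratio of -0.69 (-0.42 with a pseudocount of 5 FPKM), and Slc25a13, the form of liver, was at 0.149 and 0.0875 FPKM. Slc25a12 is abundant in muscle, whose marker genes were lower in Null by a median of -1.11, and the part of muscle fibres in its difference was not tested. The malate-aspartate and glycerol phosphate shuttles carry electrons of cytosolic NADH to mitochondria. Among 7 of their enzymes 2 were lower (6.75% of all genes) and 0 were higher (7.87%), with a median of -0.34. Both lower ones belong to the glycerol phosphate shuttle, Gpd1 at 3615 and 2296 FPKM and Gpd2 at 303 and 183 FPKM. Mdh1 and Mdh2 of the malate-aspartate shuttle were at 669.7 and 671 FPKM and at 1110 and 1032 FPKM. Its aminotransferases were lower in Null but within 1.5-fold. Got1 was at 17.3 and 13.2 FPKM (log2 -0.37) and Got2 at 7.86 and 6.02 FPKM (log2 -0.34).

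The ATP-Mg/phosphate carriers, most of them regulated by calcium, set the adenine nucleotide pool of the matrix and summed to 82.2 and 61.5 FPKM. Slc25a23 made up most of this at 75.4 and 55.8 FPKM, a log2 ratio of -0.43. Slc25a25 was at 4.75 and 3.22 FPKM and Slc25a24 at 2.01 and 2.52 FPKM, so that the ratio of Slc25a24 to Slc25a25 was 0.422 in WT and 0.782 in Null. Slc25a41 was at 0.0196 FPKM in WT, with a listed value of 0 in Null.

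The iron carriers, the mitoferrins, summed to 29.8 FPKM in WT against 33.7 in Null (log2 0.18, and -0.04 with both pools at the same sum). Slc25a28, the widely expressed form, was at 24.7 and 29.2 FPKM, and Slc25a37, the form of red cell precursors, at 5.07 and 4.54 FPKM. Red cell markers differed between the pools, with sums of 158 and 469 FPKM over the 7. Of these 4 passed the filter, and all 4 were higher in Null (7.87% of all genes). The log2 ratio of Slc25a37 was -0.13, and the part of red cells in its level was not tested. Of 9 iron and haem genes 1 was higher (7.87% of all genes), the transferrin receptor Tfrc at 22.0 and 42.3 FPKM, and 0 were lower (6.75%).

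The relatives of the uncoupling proteins that carry Slc25 symbols were low. Slc25a30 was at 2.36 and 2.29 FPKM, Slc25a27 at 1.50 and 1.46 FPKM and Slc25a14 at 1.26 and 0.977 FPKM, and together they were 0.130% of the family sum in WT. Ucp1 was at 3016 and 2487 FPKM, which is 3.51 times the sum of Slc25a4 and Slc25a5 in WT and 2.75 times in Null.

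Among the carriers without an assigned substrate class was the member with the largest log2 ratio in either direction. Slc25a48, linked to choline uptake by mitochondria, was at 12.6 FPKM in WT against 3.39 in Null, 3.72-fold lower. Its log2 ratio was -1.63, from -1.87 to -1.07 over the alternatives, and 0.526% of all genes had a lower ratio. Slc25a34 lay just inside the threshold of 1.5-fold, at 3.39 and 1.93 FPKM, a log2 ratio of -0.58, and past it under 3 of the alternatives. Slc25a35 was the most abundant of this class at 135 and 101 FPKM, and Slc25a46, an outer membrane protein, was at 38.7 and 36.4 FPKM. Slc25a45 (2.58 and 3.42 FPKM) and Slc25a47, known from liver (1.72 and 2.11 FPKM), were low in both pools. Slc25a43 had a listed value of 0 in WT, and 0.0413 FPKM in Null.

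Of the members under 1 FPKM the highest value in either pool was 0.401 FPKM, at the ornithine carrier Slc25a2 in Null. The glutamate carrier Slc25a18 was at 0.363 and 0.149 FPKM. The depth of the libraries is unknown, and no fold is given for these 7 members.

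**Figure D4:**
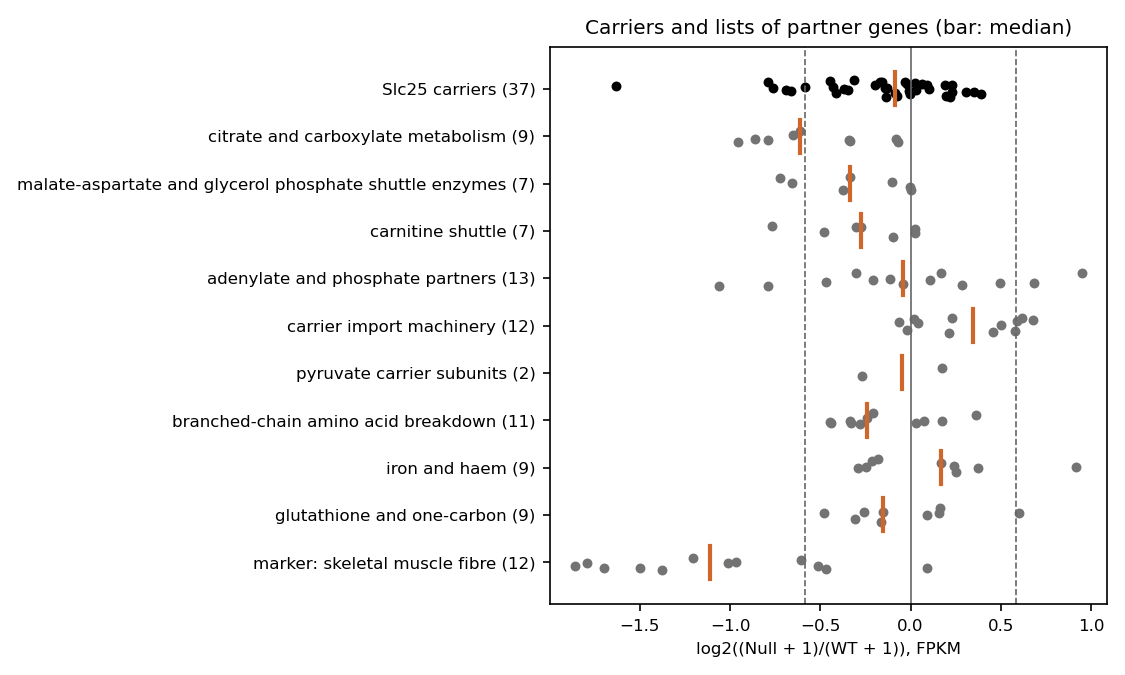
Log2 ratio of Null to WT for the carriers and for lists of genes that work beside them, with the number of genes past the filter in parentheses; each point is a gene, the coloured bar is the median and dashed lines mark 1.5-fold. The carriers centre near 0 (median -0.09), citrate and carboxylate genes lie to the left (-0.61), muscle fibre markers farther left (-1.11) and the carrier import machinery to the right (0.34).

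The machinery that brings the carrier proteins into the inner membrane was measured as well. Of 13 listed genes 12 were in the table, with a median of 0.34 (0.13 with both pools at the same sum). Past 1.5-fold 3 were higher in Null (7.87% of all genes) and 0 were lower (6.75%). The higher ones were Fxc1 (39.0 and 60.3 FPKM), Timm8a1 (2.32 and 4.31 FPKM) and Timm8b (253 and 381 FPKM), small chaperones of the intermembrane space. The part of mRNA length in these differences was not tested. Timm22, the channel of the carrier translocase, was at 16.1 and 15.8 FPKM, and Tomm70a, an outer membrane receptor of carrier precursors, at 40.8 and 38.9 FPKM. Both subunits of the pyruvate carrier, which belongs to another protein family, were within 1.5-fold: Brp44l (Mpc1) at 172 and 143 FPKM and Brp44 (Mpc2) at 659.95 and 744 FPKM.

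Abundant genes differed from low genes in the whole table. Among the 786 genes whose mean reached 100 FPKM, 22.3% passed 1.5-fold upward in Null and 6.62% downward, with a median log2 ratio of 0.18. Of the 9 members at that level 0 were higher and 1 was lower, with a median of -0.01. Between 10 and 100 FPKM 14 members had a median of -0.15, against 0.00 for all 5056 genes. Between 1 and 10 FPKM 14 members had a median of -0.05, against -0.01 for all 5755 genes.

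Promoters of members that lead the results are printed from RefSeq (build GRCm38.p6), each with 250 bases before and 50 after the gene start: the abundant members Slc25a1, Slc25a4, Slc25a20 and Slc25a3, and Slc25a48, which had the lowest ratio. The table held 43 windows for 34 of the 44 members. Capitals mark matches on either strand to GCGCANGCG (NRF1), CCGGAAG (GABPA), CACGTG (E-box), TCAAGGTCA (ERR) and TCACNCCAC (SREBP); no match overlapped that of another motif.
Slc25a1, chr16:17928170-17928469, minus strand: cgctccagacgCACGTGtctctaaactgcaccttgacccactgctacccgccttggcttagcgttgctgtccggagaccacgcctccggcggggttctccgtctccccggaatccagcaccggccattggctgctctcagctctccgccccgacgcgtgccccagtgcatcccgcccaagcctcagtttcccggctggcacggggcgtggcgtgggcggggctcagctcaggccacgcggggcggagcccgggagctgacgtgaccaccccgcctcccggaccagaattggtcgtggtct
Slc25a4, chr8:46211013-46211312, minus strand: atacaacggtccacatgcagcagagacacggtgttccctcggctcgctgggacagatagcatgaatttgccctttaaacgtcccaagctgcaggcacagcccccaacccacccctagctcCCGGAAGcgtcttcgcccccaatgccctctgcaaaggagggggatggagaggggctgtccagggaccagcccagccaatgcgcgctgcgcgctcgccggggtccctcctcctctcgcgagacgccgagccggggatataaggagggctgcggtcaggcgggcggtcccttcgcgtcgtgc
Slc25a20, chr9:108661886-108662185, plus strand: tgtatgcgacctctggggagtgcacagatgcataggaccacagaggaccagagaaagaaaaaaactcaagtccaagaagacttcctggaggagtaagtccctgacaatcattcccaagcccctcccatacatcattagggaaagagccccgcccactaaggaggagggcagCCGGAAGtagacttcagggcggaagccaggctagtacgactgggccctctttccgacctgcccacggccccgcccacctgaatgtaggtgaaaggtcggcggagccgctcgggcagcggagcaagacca
Slc25a3, chr10:91123918-91124217, minus strand: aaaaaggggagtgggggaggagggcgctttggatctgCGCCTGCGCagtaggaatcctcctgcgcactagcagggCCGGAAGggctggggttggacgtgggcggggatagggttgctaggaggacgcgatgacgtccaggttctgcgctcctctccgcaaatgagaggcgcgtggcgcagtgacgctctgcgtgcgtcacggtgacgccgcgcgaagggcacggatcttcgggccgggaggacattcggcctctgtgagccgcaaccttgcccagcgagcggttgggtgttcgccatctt
Slc25a48, chr13:56438105-56438404, plus strand: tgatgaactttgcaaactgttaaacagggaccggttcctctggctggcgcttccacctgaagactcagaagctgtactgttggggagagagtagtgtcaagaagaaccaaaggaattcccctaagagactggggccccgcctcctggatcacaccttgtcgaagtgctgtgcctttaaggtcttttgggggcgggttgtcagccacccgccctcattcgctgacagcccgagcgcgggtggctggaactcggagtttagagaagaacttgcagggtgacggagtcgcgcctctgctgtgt

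Slc25a4, Slc25a20 and Slc25a3 each held a GABPA match, Slc25a3 also an NRF1 match and Slc25a1 an E-box, and the Slc25a48 window held none of these letters. Over all member windows, CCGGAAG was in 6 of 43 windows, against 8.86% of all 32851 windows. The NRF1 letters were in 2 (4.65%, against 6.25%), the E-box in 8 windows of 7 genes (18.6%, against 7.15%), the SREBP letters in 1 (2.33%, against 1.24%) and the ERR letters in 0 (against 0.423%). Of the motifs not in capitals here, the GC box GGGCGG was in 36 windows of 29 genes (83.7%, against 35.7%). CCAAT was in 21 windows of 18 genes (48.8%, against 37.4%), and TATAAA was in 2 (4.65%, against 13.6%). Windows of a gene with several starts can overlap, and the E-box of Slc25a14 was counted in 2 overlapping windows. All windows include those of non-coding genes, and a match is a description of the letters only.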

How the data were processed

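Per the labels, poly(A) mRNA of brown fat was sequenced in 3 WT and 3 Null samples and small RNA in 1 sample each. The submitters' processing notes name CASAVA, TopHat, BWA, edgeR and DESeq and build mm9, with no role, version or annotation. FPKM were deposited by the authors with 1 column per genotype, combined in a way no source states, so the depth is unknown, and a 0 can be a failed estimate (5796 genes in WT and 6016 in Null). The microRNA values are a signal headed RPM that the authors deposited; the deposited p-values and ratios of that table were not used.

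Log2((Null + 1)/(WT + 1)) was computed with Python 3.11.15 (pandas 2.3.3, numpy 2.4.6) for genes whose mean reached 1 FPKM, tested on simulated data. Alternatives were pseudocounts of 0.1 and 5 FPKM, no filter, a mean of at least 5 FPKM, and 3 scalings: the same sum, the median of ratios, and quantile normalization. Members, substrate classes (from general knowledge), lists and motifs were chosen with earlier results of these data known. By rule, members reaching 1 FPKM could be named, in full the 12 most abundant, those past 1.5-fold, Slc25a4, Slc25a5 and Slc25a20, and any member listed at 0 in 1 pool; of partner lists, genes past 1.5-fold and the 3 most abundant. Cs, Vdac1, Got1, Got2, Timm22, Tomm70a, Mylpf, Slc25a2, Slc25a13, Slc25a18 and Slc25a31 were added after their values were seen. A comparison by protein length was planned because ratios had differed between short and long mRNAs in earlier results of these data. It was not run, so the part of mRNA length in the differences of members, partner lists and markers was not tested. Values of 1 member and of its class sum are not reported or drawn here, but it counts in the family's totals.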

Additional observations from a re-analysis of the deposited data

How the results depend on the processing

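The 58 values recomputed under up to 7 alternatives gave 322 values, none of which turned a difference past 1.5-fold around. Many could not have done so. Counts, and values within 1.5-fold as reported, could not be labelled as turned. Ratios between members cannot change when each pool is scaled by 1 factor, and the ratio of a gene cannot change with the filter. The number of lower members, 5 as reported, was 3 with a pseudocount of 5 FPKM, where 3.04% of all genes were lower. It was 9 with both pools scaled to the same sum, where 13.97% of all genes were lower. It was 5 or 6 in the other alternatives. There the share of all genes was 9.15% with a pseudocount of 0.1 FPKM, 7.24% with the median of ratios and 6.99% with quantile normalization. The number of higher members was 0 in all 7 alternatives. The share of all genes that were higher lay between 4.04% (same sum) and 10.34% (pseudocount of 0.1 FPKM). These shares were not computed for the alternative filters. The family median log2 ratio lay between -0.30 (same sum) and -0.06 (no filter). The planned leaving out of replicates does not apply to 1 column per genotype. No paired analysis was possible because the columns carry no replicate numbers. The unknown depth limits members of a few FPKM most.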

Other observations

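Some carriers of the same family were listed under older symbols and so fell outside the symbol rule. By RefSeq synonyms, Mcart1 is Slc25a51, which carries NAD into mitochondria. It was abundant, at 110 FPKM in the WT pool and 93.0 FPKM in the Null pool, below Slc25a35 (135 and 101 FPKM) in both. Mcart6, now Slc25a53, was at 0.512 and 0.307 FPKM, and 4930443G12Rik, now Slc25a54, was listed at 0 in both pools.

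Overlaps with members in RefSeq were listed only for genes that are also in the mRNA table. Slc25a11 (142 and 144 FPKM) overlaps Rnf167 on the other strand (50.2 and 62.4 FPKM), and Slc25a25 overlaps Naif1 on the other strand (0.841 and 0.587 FPKM). Slc25a26 overlaps Lrig1 (15.8 and 15.9 FPKM) and Slc25a35 overlaps Rangrf (1.04 and 4.04 FPKM), with the strands not compared. Slc25a21 overlaps Pax9 on the other strand (0 and 0.0142 FPKM). Whether the counting used strand is not given in the sources used here, so the reads of such pairs cannot be told apart.

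Markers of other cells also differed between the pools, where 7.87% of all genes were higher by 1.5-fold or more and 6.75% were lower. Macrophage markers were higher by 1.5-fold or more for 4 of 7 genes, with sums of 98.7 and 150.5 FPKM, and fibroblast markers for 2 of 5, with sums of 227 and 372 FPKM. Endothelial markers were higher for 1 of 5, Cldn5 at 27.9 and 76.1 FPKM. Of 5 epithelial markers 4 were under 1 FPKM in both pools. The other, Prap1, was higher, at 1.19 and 110 FPKM (log2 ratio 5.67). The epithelial difference rests on this 1 gene, in a list chosen with earlier results of these data known. Brown adipocyte markers went both ways, with 1 of 8 higher (Cox7a1 at 2634 and 5343 FPKM) and 1 lower (Dio2 at 18.6 and 9.05 FPKM), a median log2 ratio of -0.14 and sums of 8322 and 10591 FPKM. Of 5 general fat cell markers 1 was higher (Adipoq at 1163 and 1899 FPKM) and 0 were lower, with a median of 0.03 and sums of 30026 and 37738 FPKM. Their part in the levels of the carriers was not tested.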
